A study of Mus musculus with 49 samples.

Results

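Breakdown of stored fat in white adipocytes was followed through 9 genes: the receptors Adrb1, Adrb3 and Adra2a, the phosphodiesterase Pde3b, the lipases Pnpla2, Lipe and Mgll, the lipase coactivator Abhd5 and the lipase inhibitor G0s2. They were taken by their symbol from all 5 deposited tables, with the transcript of the highest total where a symbol had several, and are 9 of 22869 gene symbols. All 9 had values in all 43 libraries used, and none was lost to a filter.

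White fat of C57BL/6 and 129S1/SvImJ mice, both inbred strains, was profiled by RNA-seq. The visceral epididymal depot (eWAT) was sampled on standard chow, with 5 libraries in each strain. It was also sampled on a low fat diet given with or without the PPARG agonist rosiglitazone, with 4 libraries for each strain and treatment, and after 12 weeks on low fat diet, with 5 libraries of C57BL/6 and 4 of 129S1/SvImJ. The subcutaneous inguinal depot (iWAT) was sampled after the same 12 weeks, with 4 libraries in each strain. In the drug experiment both diet groups ate the control low fat diet (Research Diet D12450B) for 10 weeks, from 6 to 16 weeks of age. They then had either that diet or the same diet with 36 mg rosiglitazone per kg for the final 2 weeks, to 18 weeks of age. Mice of the 12-week groups ate D12450B. The diet labels of the 12-week and chow groups name no drug. The treatment text with these ages and the drug stands on every sample, chow and 12-week included, so whether the ages apply to those groups is not clear from the labels. The labels give no substrain of C57BL/6 and do not say whether a library was 1 animal or several. P-values therefore measure the spread between these libraries. Library numbers run in a separate block for each group, and the labels name no batch. Any effect of library order or preparation cannot be told apart from strain, diet or depot. Nor do the labels say whether the 12-week eWAT and iWAT libraries came from the same mice, and the depots were compared as unpaired. The 5 chow-fed F1 libraries and the 1 GRO-seq sample were not analysed here.

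Catecholamines act on adipocytes through beta-adrenergic receptors, which raise cyclic AMP, and alpha-2-adrenergic receptors, which lower it. Cyclic AMP activates protein kinase A, which phosphorylates hormone-sensitive lipase and the droplet coat protein perilipin, and insulin opposes this by activating phosphodiesterase 3B. Triglyceride is then cut in turn by adipose triglyceride lipase, hormone-sensitive lipase and monoglyceride lipase to fatty acids and glycerol.

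Values are the authors' normalized scores, whole numbers with a floor of 1, and are compared only between groups and never between genes, since no length was used. Differences are given on the log2(value + 1) scale from limma, with the standard error (SE), and a gene was called where its Benjamini-Hochberg adjusted p over all 22869 symbols was under 0.05. The sequencing depth is unknown. Shares of all genes given below are over all 22869 symbols, with no filter on level. In each library 15.2% to 37.7% of values were at the floor, and 13633 genes had a mean of at least 10. The genes followed here, other than Adrb1 and Adra2a, read 250 or more in every library. Shares among genes of similar level were not computed, so the contrast with all genes may be overstated. The adipocyte marker Adipoq, the hormone adiponectin, had group medians of 14393 to 21259, and its lowest value, 2402, was in 129S1/SvImJ chow eWAT. Some libraries stood apart by more than 2 log2 units in the summed markers of another tissue or cell type. These were 129S1/SvImJ chow replicates 1 and 2 (epididymis and the list of skin and glandular epithelium, with muscle in replicate 1), C57BL/6 chow replicates 2 and 5 (skin and glandular epithelium), C57BL/6 control diet replicate 3 (erythroid), C57BL/6 12-week eWAT replicate 3 (muscle), C57BL/6 iWAT replicate 4 and 129S1/SvImJ iWAT replicate 4 (lymphocyte and thermogenic), and 129S1/SvImJ iWAT replicate 1 (lymphocyte and muscle). The 4 C57BL/6 iWAT libraries held 467 to 679 distinct values against 1293 to 1865 in the others, so their low values are coarse. In whole tissue, fewer cells of a type and less RNA per cell cannot be told apart.

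Of the 9 genes, 7 matched the RefSeq promoter table (build GRCm38.p6, from C57BL/6J). The 250 bases before the start of Pnpla2, Abhd5 and Mgll are shown because these 3 lipase-side genes were called higher with rosiglitazone in 129S1/SvImJ eWAT. They lie on the plus strand at chr7:141454938-141455187, chr9:122351366-122351615 and chr6:88724162-88724411, each just upstream of an annotated transcript start of the gene. Mgll has another window, at chr6:88724454-88724703, which is not shown. Windows were taken by gene symbol and not matched to the transcript rows used. Capitals mark the hexamer AGGTCA, of the kind bound by nuclear receptors, on either strand.
Pnpla2: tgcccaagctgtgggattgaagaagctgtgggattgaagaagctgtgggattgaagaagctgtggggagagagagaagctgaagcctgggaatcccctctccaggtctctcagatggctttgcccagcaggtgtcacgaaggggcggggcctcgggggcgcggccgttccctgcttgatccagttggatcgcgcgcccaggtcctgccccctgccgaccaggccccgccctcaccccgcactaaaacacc
Abhd5: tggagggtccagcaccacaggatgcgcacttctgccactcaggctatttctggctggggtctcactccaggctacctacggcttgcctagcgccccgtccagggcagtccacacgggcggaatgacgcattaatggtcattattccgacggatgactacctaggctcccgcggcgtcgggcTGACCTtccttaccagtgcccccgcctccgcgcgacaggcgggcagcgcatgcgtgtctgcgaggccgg
Mgll: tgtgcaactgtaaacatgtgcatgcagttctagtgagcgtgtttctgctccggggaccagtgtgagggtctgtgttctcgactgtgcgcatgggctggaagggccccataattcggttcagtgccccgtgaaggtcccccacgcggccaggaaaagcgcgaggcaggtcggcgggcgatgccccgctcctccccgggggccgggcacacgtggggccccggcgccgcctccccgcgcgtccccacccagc
Over both strands, 1 match to AGGTCA was found in the 9 windows of the 7 genes, its reverse complement TGACCT in Abhd5, starting 69 bases before the start. Of all 32851 promoter windows of this length in the table, 14.024% held AGGTCA. The direct repeat of AGGTCA with 1 base between its copies, which contains AGGTCA and is the form recognised by PPARG with its partner RXR, was in 0.033% of windows and in none of the 9. The cyclic AMP response element TGACGTCA was in 1.546% of windows and likewise in none of the 9. A match or its lack says only which letters these windows hold. The reference carries C57BL/6J sequence, and 129S1/SvImJ sequence was not used here.

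Mgll and Abhd5 were called higher with rosiglitazone in eWAT of both strains, and Pnpla2 and Pde3b in 129S1/SvImJ alone. For Pnpla2 and Pde3b the responses were not called different between the strains (limma interaction, adjusted p = 0.806 and 0.770). In C57BL/6 eWAT 2 of the 9 genes were called, both higher, where 2.43% of all genes were called in either direction and 1.53% were called higher. In 129S1/SvImJ eWAT 4 of the 9 were called, all higher, where 5.51% of all genes were called and 2.96% were called higher. The shares of both strains include genes at or near the floor, so they are not shares among genes of similar level. The median log2 difference of the 9 genes was 0.18 in C57BL/6 and 0.40 in 129S1/SvImJ, beside medians of 0 and -0.005 over all genes. The 2 responses come from separate control and drug libraries and share none.

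Adrb3, the main beta-adrenergic receptor of rodent adipocytes, did not pass the test in either strain. In 129S1/SvImJ it read 2821, 2398, 2799 and 2000 on control diet and 1013, 1842, 946 and 1857 on rosiglitazone. All drug libraries lay below all control libraries, as for 10.3% of all genes in either direction, and the log2 difference was -0.88 (SE 0.32, unadjusted p = 0.0156, adjusted p = 0.150). C57BL/6 values overlapped, from 1187 to 3836 on control diet and from 1867 to 2479 on the drug, with a difference of -0.054 (SE 0.32). The responses differed by -0.83 (SE 0.45, adjusted p = 0.586).

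Adrb1, the beta-1-adrenergic receptor, and Adra2a, the alpha-2A-adrenergic receptor, did not pass the test in either strain. Adrb1 ran from 9 to 82 and Adra2a from 1 to 7 over the libraries of the drug experiment. Beside an Adra2a value, the adjacent values occurring in the same library were up to 100% away in C57BL/6 and up to 200% in 129S1/SvImJ on the drug. The log2 differences of 0.18 (SE 0.42) in C57BL/6 and -0.69 (SE 0.42) in 129S1/SvImJ rest on such steps.

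Pde3b, the phosphodiesterase through which insulin lowers cyclic AMP, read 2191, 2230, 2942 and 2566 on control diet and 2874, 3892, 3100 and 3247 on rosiglitazone in 129S1/SvImJ. Only control replicate 3 reached into the range of the drug libraries. The log2 difference was 0.40 (SE 0.12, adjusted p = 0.0492), kept without control replicate 3 or rosiglitazone replicate 1 and lost without any other single library (adjusted p 0.0675 to 0.173). C57BL/6 values were 2520, 2423, 2068 and 2864 on control diet and 3247, 2530, 2729 and 2897 on the drug. They overlapped, with a log2 difference of 0.21 (SE 0.12, adjusted p = 0.467). The strains' responses differed by 0.19 (SE 0.17, adjusted p = 0.770).

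Pnpla2 encodes adipose triglyceride lipase, the enzyme of the first cut. The row with the highest total, used here, has a RefSeq accession of the non-coding class (NR_028142). The other 2 rows are coding accessions (NM_001163689 and NM_025802), and the 3 can share reads. Over the 3 rows the log2 difference with the drug was 0.57 to 0.59 in C57BL/6 and 0.97 to 0.98 in 129S1/SvImJ. The values of the row used were 4350, 5301, 4350 and 9023 on control diet and 11318, 6133, 8131 and 8131 on rosiglitazone in C57BL/6. In 129S1/SvImJ they were 6193, 3770, 3119 and 3401 on control diet and 8024, 5818, 8635 and 9403 on rosiglitazone. Both strains overlapped between diets through 1 high control library, replicate 4 in C57BL/6 and replicate 1 in 129S1/SvImJ. That C57BL/6 library also read highest of its group in Adrb1, Adrb3, Pde3b, Abhd5 and Lipe, and lowest in Mgll and G0s2. All C57BL/6 responses and control diet strain differences include it. The 129S1/SvImJ level was 1.98-fold higher on the drug (log2 difference 0.98, SE 0.27, adjusted p = 0.0481), a call that was lost without any 1 library other than control replicate 1 or rosiglitazone replicate 2 (adjusted p 0.106 to 0.1215). In C57BL/6 the difference was 0.59 (SE 0.27, unadjusted p = 0.0473, adjusted p = 0.350), and the strains' responses differed by 0.40 (95% interval -0.42 to 1.22).

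Abhd5, which activates adipose triglyceride lipase, read 544, 485, 405 and 769 on control diet and 858, 690, 807 and 805 on rosiglitazone in C57BL/6. In 129S1/SvImJ it read 703, 616, 843 and 621 on control diet and 1068, 1026, 964 and 972 on rosiglitazone. The diets did not overlap in 129S1/SvImJ, and overlapped in C57BL/6 through control replicate 4. The log2 difference was 0.56 (SE 0.14, adjusted p = 0.0416) in C57BL/6 and 0.54 (SE 0.14, adjusted p = 0.0251) in 129S1/SvImJ. The responses differed between strains by -0.012 (95% interval -0.43 to 0.41). In C57BL/6 the call was kept without control replicate 4 or rosiglitazone replicate 2 and lost without any other single library (adjusted p 0.0720 to 0.144). In 129S1/SvImJ it was kept without control replicate 3 or rosiglitazone replicate 3 or 4 and otherwise lost (adjusted p 0.0544 to 0.101).

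Mgll, monoglyceride lipase, cuts the last fatty acid from glycerol. It read 8024, 8490, 7713 and 7594 in the C57BL/6 control libraries and 9784, 9403, 9909 and 9909 on rosiglitazone. In 129S1/SvImJ it read 9191, 9517, 10046 and 9311 on control diet and 15186, 16066, 18383 and 17219 on rosiglitazone. Every rosiglitazone library lay above every control library of its strain, as happened in either direction for 5.97% of all genes in C57BL/6 and 10.3% in 129S1/SvImJ, and the 129S1/SvImJ rosiglitazone libraries stood above all 12 others of the experiment. The mean was 1.23-fold higher with the drug in C57BL/6 (log2 difference 0.29, SE 0.08, adjusted p = 0.0423). In 129S1/SvImJ it was 1.75-fold higher (log2 difference 0.81, SE 0.08, adjusted p = 8.82e-07). The difference between the responses was 0.51 (SE 0.11, 95% interval 0.29 to 0.74, adjusted p = 0.0494), and Mgll was the only one of the 9 called in this strain by drug interaction, where 0.210% of all genes were called and 0.0743% in this direction. Leaving out any 1 library other than C57BL/6 control replicate 4 or C57BL/6 rosiglitazone replicate 1 ended that interaction call, with the difference at 0.47 to 0.56 and adjusted p at 0.0534 to 0.138 in those 14 fits. The C57BL/6 response lost its call without any 1 library other than rosiglitazone replicate 2 (adjusted p 0.0584 to 0.130), while the 129S1/SvImJ response kept it whichever library was left out. All 4 Mgll transcript rows moved the same way, by 0.29 to 0.42 in C57BL/6 and by 0.69 to 0.92 in 129S1/SvImJ, although rows of a gene can share reads. The authors' deposited table gives log2 fold changes for Mgll of 0.5 in C57BL/6 and 1 in 129S1/SvImJ. Both are larger than the 0.29 and 0.81 fitted here on normalized scores, and the deposited values of the other genes are not quoted.

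Lipe, hormone-sensitive lipase, did not pass the test in either strain and differed with the drug by 0.14 in C57BL/6 (95% interval -0.065 to 0.35) and by 0.07 in 129S1/SvImJ (95% interval -0.14 to 0.28). Its values ran from 6617 to 9517 over both C57BL/6 diets and from 7491 to 9311 over both 129S1/SvImJ diets. G0s2, the inhibitor of adipose triglyceride lipase, read 1171, 822, 838 and 440 on control diet and 434, 442, 964 and 784 on the drug in C57BL/6. In 129S1/SvImJ it read 1111, 1127, 912 and 1009 on control diet and 971, 679, 728 and 567 on the drug. Control and drug libraries overlapped in both strains, and the log2 differences of -0.32 (SE 0.30) and -0.52 (SE 0.30) did not pass the test (adjusted p = 0.718 and 0.416). Within libraries, the log2 ratio of Pnpla2 to G0s2 was 2.83 ± 1.07 (SD, n = 4) on control diet and 3.74 ± 0.71 (SD, n = 4) on rosiglitazone in C57BL/6, where the diets overlapped. In 129S1/SvImJ the ratio was 1.94 ± 0.36 (SD, n = 4) and 3.44 ± 0.47 (SD, n = 4), with no overlap between the diets. Between strains the ratio was lower in 129S1/SvImJ without overlap on chow, at 1.38 to 1.87 against 2.30 to 2.76, and in iWAT, at 1.29 to 1.59 against 1.98 to 2.63. It overlapped between strains on control diet, on rosiglitazone and in 12-week eWAT. This ratio is a description and was not tested.

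**Figure D1:**
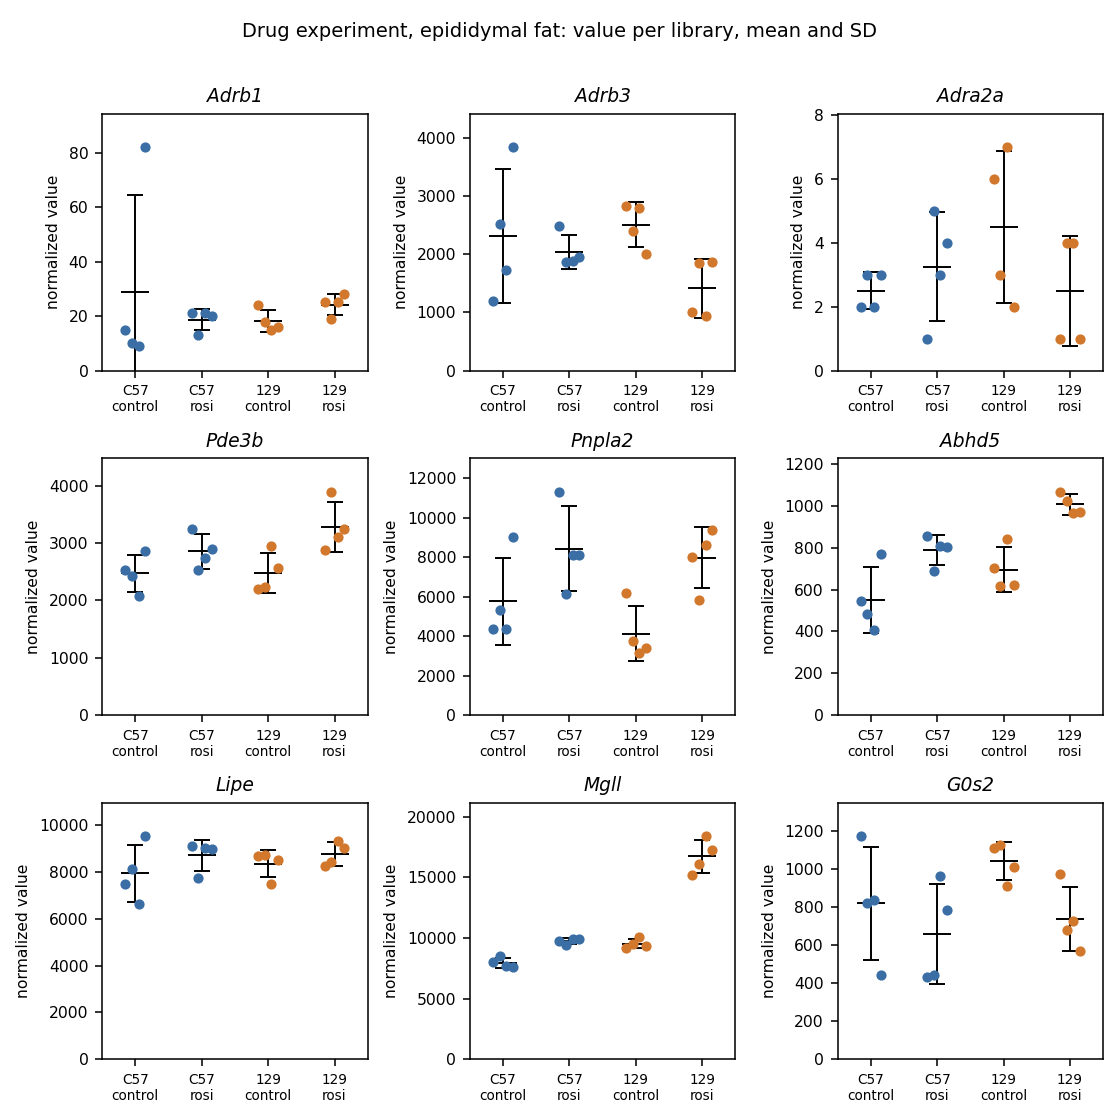
Normalized value (linear axis from 0) of each of the 9 genes in every library of the drug experiment, by strain and diet (4 libraries per group). Points are libraries and bars are the mean and SD, cut at 0 for Adrb1 in C57BL/6 control, where 1 library read 82. The 129S1/SvImJ rosiglitazone libraries for Mgll sit between 15186 and 18383, above all other libraries.

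**Figure D2:**
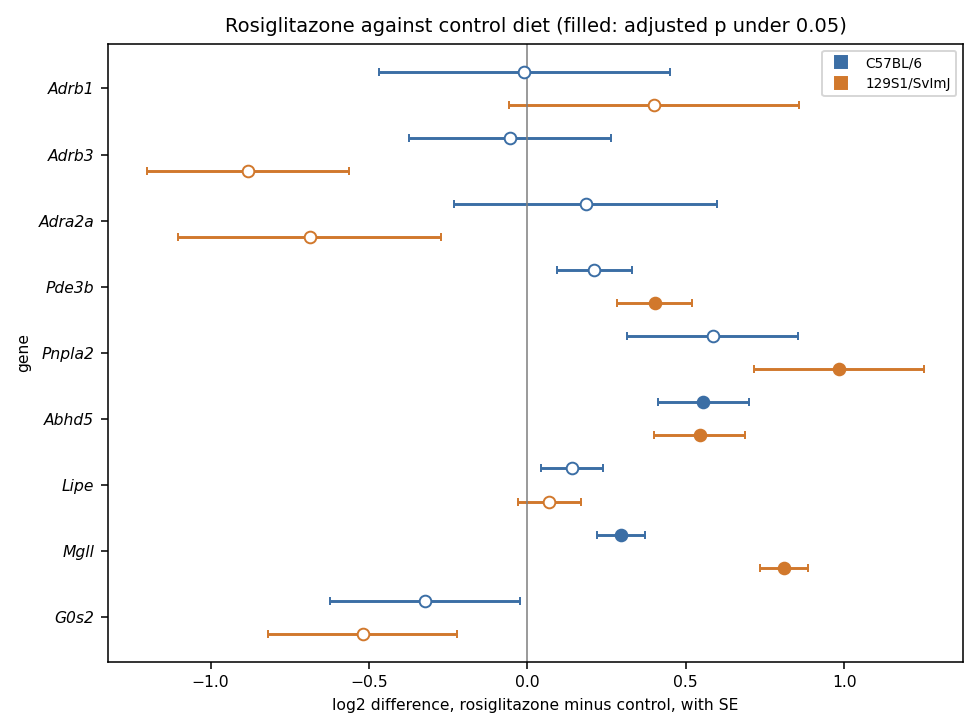
Log2 difference between rosiglitazone and control diet with its SE for each gene in C57BL/6 and 129S1/SvImJ eWAT. Filled points passed an adjusted p of 0.05 in limma: Abhd5 and Mgll in both strains, and Pde3b and Pnpla2 in 129S1/SvImJ.

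The summed value of the 10 adipocyte markers also differed between the diets. It was 111708 to 127288 on control diet and 130687 to 148051 on rosiglitazone in C57BL/6, and 121797 to 132692 and 153795 to 161789 in 129S1/SvImJ, without overlap in either strain. The sum hides opposite moves among its genes. In C57BL/6, Cidec and Gpd1 were higher on the drug without overlap and the other 8 overlapped. In 129S1/SvImJ, Fabp4 (30692 to 41978 on control diet and 58431 to 69086 on the drug) and Cidec were higher without overlap, while 4 of the 10 were lower without overlap: Plin1, Retn, Cfd and Pparg, the receptor that rosiglitazone binds, which went from 1043 to 1233 on control diet to 755 to 969. The 8 thermogenic markers summed to 101 to 140 and 309 to 346 in C57BL/6 and to 225 to 400 and 1126 to 2258 in 129S1/SvImJ. Progenitor and fibroblast markers summed to 8533 to 17329 and 6962 to 10158 in C57BL/6 and to 18253 to 22478 and 11670 to 19866 in 129S1/SvImJ. Macrophage markers summed to 2703 to 5749 and 1579 to 3877 in C57BL/6 and to 3067 to 4562 and 1888 to 3118 in 129S1/SvImJ. Of these 8 markers, Cd14 was lower on the drug without overlap in C57BL/6, and Emr1, Mrc1, Lyz2 and Cd14 in 129S1/SvImJ. None was higher without overlap. The part of these markers in the results above was not tested.

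Around the 9 genes, 68 further genes of the pathway were counted in 6 lists. With rosiglitazone, 14 rose and 1 fell in C57BL/6, and 20 rose and 2 fell in 129S1/SvImJ. Of all genes, 2.43% and 5.51% were called in either direction, and 1.53% and 2.96% were called higher. These shares also stand beside the list counts that follow. Of the droplet proteins, 4 of 10 rose in C57BL/6 and 5 of 10 in 129S1/SvImJ, with list medians of 0.41 and 0.38. Cidea, a droplet fusion protein also abundant in thermogenic fat, rose from 16 ± 4.55 to 57 ± 9.59 (SD, n = 4) in C57BL/6 and from 112 ± 12.9 to 585 ± 195 (SD, n = 4) in 129S1/SvImJ. Plin5, a perilipin that binds adipose triglyceride lipase and Abhd5, rose from 113 ± 33.1 to 484 ± 32.2 (SD, n = 4) in 129S1/SvImJ (log2 difference 2.13, SE 0.23, adjusted p = 1.005e-05).

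On the side of fatty acid and glycerol handling, 4 of 9 genes rose in C57BL/6, and 5 rose and 1 fell in 129S1/SvImJ. Acsl1, which activates fatty acids with coenzyme A, rose by 0.97 (SE 0.13) and 1.42 (SE 0.13). Aqp7, the channel by which glycerol leaves adipocytes, rose from 792 ± 57.1 to 1675 ± 144 (SD, n = 4) in 129S1/SvImJ. Among G proteins and adenylyl cyclases, 2 of 13 rose and 1 fell in each strain, and the cyclase Adcy5 rose by 0.67 (SE 0.12) in C57BL/6 and 1.39 (SE 0.12) in 129S1/SvImJ. Of the protein kinase A, phosphodiesterase and anchor genes, 2 of 14 rose in C57BL/6 and 4 of 14 in 129S1/SvImJ, and none fell. Akap1, an anchor of protein kinase A, rose by 0.47 (SE 0.11) and 0.96 (SE 0.11).

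Other receptors were mostly uncalled, with 1 of 14 higher in C57BL/6 and 4 of 14 in 129S1/SvImJ. Adra1a, an alpha-1-adrenergic receptor, rose from 48.3 ± 6.90 to 139 ± 18.2 (SD, n = 4) in 129S1/SvImJ. Niacr1, the nicotinic acid receptor Hcar2 that inhibits lipolysis, rose from 30.3 ± 6.24 to 108 ± 30.1 (SD, n = 4) in 129S1/SvImJ, against 59 ± 16.8 and 62 ± 24.7 (SD, n = 4) in C57BL/6. Among the 68 genes it was the only one called in the interaction (log2 difference 1.77, SE 0.36, adjusted p = 0.0438), where 0.210% of all genes were called. Of the 8 insulin signalling genes 1 rose in C57BL/6 and none was called in 129S1/SvImJ.

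Between the strains, Mgll was higher in 129S1/SvImJ on both diets of the drug experiment. On control diet it was the only one of the 9 called, where 17.5% of all genes were called and 10.0% were called higher, and its log2 difference was 0.26 (SE 0.08, adjusted p = 0.0212) with no overlap between the strains, as in 17.6% of all genes. Without C57BL/6 replicate 3 or 129S1/SvImJ replicate 3 the call was lost (adjusted p 0.0593 and 0.0616). On rosiglitazone Mgll was again the only one of the 9 called, where 10.7% of all genes were called and 5.45% were called higher, and it was 1.71-fold higher in 129S1/SvImJ (log2 difference 0.77, SE 0.08, adjusted p = 5.98e-07). This call was kept whichever library was left out. The same control libraries stand in the response and in the strain comparison, so these values are not independent of the drug responses above. Endothelial markers summed to 4024 to 6253 in C57BL/6 and 2610 to 3281 in 129S1/SvImJ on control diet, and overlapped on rosiglitazone. Sums of progenitor and fibroblast markers and of thermogenic markers were higher in 129S1/SvImJ without overlap on both diets. The adipocyte sum overlapped on control diet and was higher in 129S1/SvImJ without overlap on rosiglitazone. The part of these markers was not tested.

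Abhd5 was 551 ± 156 (SD, n = 4) in C57BL/6 and 696 ± 106 (SD, n = 4) in 129S1/SvImJ on control diet, and did not pass the test (log2 difference 0.37, SE 0.14, adjusted p = 0.0870). Its C57BL/6 replicate 4 read 769, above the other 3 of its group. Without that library the difference was 0.54 (adjusted p = 0.00283), and Abhd5 did not pass without any other single library. Replicate 4 opposes the difference, so leaving it out can only enlarge it and adds no support. On rosiglitazone all 129S1/SvImJ libraries lay above all C57BL/6 libraries, as they did in either direction for 13.2% of all genes, with a difference of 0.35 (SE 0.14, adjusted p = 0.128). The other 7 genes differed between strains by -0.47 to 0.56 on control diet and by -0.59 to 0.37 on rosiglitazone, and none was called. Adrb3 on rosiglitazone, at -0.59 (SE 0.32, adjusted p = 0.303), did not overlap between the strains. Of the 68 further pathway genes, 9 were higher and 13 lower in 129S1/SvImJ on control diet, and 10 were higher and 8 lower on rosiglitazone. Of all genes, 17.5% and 10.7% were called there in either direction. Adcy5 was lower in 129S1/SvImJ on both diets, by -1.19 (SE 0.12, adjusted p = 1.064e-06) and -0.47 (SE 0.12, adjusted p = 0.0148), and Cidea was higher on both, by 2.76 (SE 0.22, adjusted p = 2.278e-08) and 3.28 (SE 0.22, adjusted p = 1.615e-09).

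After 12 weeks of low fat diet the strains differed in 4 of the 9 genes in eWAT, where 21.7% of all genes were called. Mgll and Pde3b were higher in 129S1/SvImJ, as were 11.6% of all genes, and Lipe and Adra2a were lower, as were 10.2%. All 4 calls were kept whichever library was left out, and in all 4 the strains did not overlap, as in 21.1% of all genes. The median over the 9 genes was 0.18, beside 0 over all genes.

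Mgll read 7503, 7790, 7297, 8182 and 8365 in C57BL/6 and 13444, 12534, 10492 and 14237 in 129S1/SvImJ. Its level was 1.61-fold higher in 129S1/SvImJ (log2 difference 0.69, SE 0.09, adjusted p = 0.00231), and the 4 transcript rows differed by 0.40 to 0.69. Pde3b read 2559, 2725, 2240, 2712 and 2304 in C57BL/6 and 3744, 3812, 4878 and 3625 in 129S1/SvImJ, with replicate 3 highest. It was 1.59-fold higher in 129S1/SvImJ (log2 difference 0.67, SE 0.11, adjusted p = 0.00461). Lipe read 11421, 11273, 10268, 10671 and 10671 in C57BL/6 and 8475, 7366, 8826 and 8826 in 129S1/SvImJ. All 4 of the 129S1/SvImJ libraries were lower (log2 difference -0.38, SE 0.06, adjusted p = 0.00519).

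Adra2a read 6, 6, 8, 7 and 5 in C57BL/6 and 1, 4, 2 and 2 in 129S1/SvImJ. The log2 difference was -1.25 (SE 0.26, adjusted p = 0.0133), but these values lie close to the floor of 1, and the adjacent values occurring in the same 129S1/SvImJ library were 50% to 100% away.

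Adrb3 read 2812, 3066, 2739, 3017 and 2567 in C57BL/6 and 1072, 1401, 2951 and 1862 in 129S1/SvImJ, and did not pass the test (log2 difference -0.74, SE 0.27, adjusted p = 0.102). Only 129S1/SvImJ replicate 3 reached the C57BL/6 range. Without it the difference was -1.01 (adjusted p = 0.0114), and Adrb3 did not pass without any other single library. Leaving out the library that opposes a difference can only enlarge it, so this fit adds no support. Pnpla2 was 4730 ± 438 (SD, n = 5) and 6162 ± 1295 (SD, n = 4), a difference of 0.36 (SE 0.14, adjusted p = 0.112). In the alternative limma fit over genes with a mean of at least 10, with no library left out, both genes were called. Their differences were unchanged (adjusted p = 0.01815 for Adrb3 and 0.0401 for Pnpla2), so whether they pass depends on the filter. For Abhd5 the difference was 0.18 (SE 0.07, adjusted p = 0.116). It was 0.23 without 129S1/SvImJ replicate 1 (adjusted p = 0.0469), the lowest of its group, which again could only enlarge the difference. G0s2 read 937, 1426, 2385 and 2559 in 129S1/SvImJ, on both sides of the C57BL/6 range of 1757 to 2214, and Adrb1 overlapped as well.

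Summed markers of other cell types also lay apart between these eWAT groups. Endothelial markers summed to 5199 to 5796 in C57BL/6 and 2047 to 2872 in 129S1/SvImJ, and thermogenic markers to 145 to 214 and 329 to 598. The sum of the adipocyte markers overlapped, at 156691 to 171651 and 120043 to 187494, but its genes did not move alike. In 129S1/SvImJ 5 of the 10 were lower without overlap (Cfd, Cidec, Gpd1, Retn and Slc2a4) and Fabp4 was higher without overlap, at 56211 to 82358 against 40624 to 45057. The part of these markers was not tested. Of the 68 further pathway genes 24 were higher and 11 lower in 129S1/SvImJ, where 21.7% of all genes were called in either direction. The higher ones included Pck1, the enzyme of glyceroneogenesis (1.08, SE 0.10, adjusted p = 0.000529), Cidea (2.55, SE 0.35, adjusted p = 0.00254) and Adora1, the adenosine receptor that restrains lipolysis (0.65, SE 0.09, adjusted p = 0.00232). Fabp5, a fatty acid binding protein, was lower (-1.58, SE 0.24, adjusted p = 0.00423), and so was the adenylyl cyclase Adcy4 (-1.63, SE 0.14, adjusted p = 0.000452).

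In iWAT none of the 9 genes passed the test between strains, where 1.69% of all genes were called. At an unadjusted p under 0.05 there were 2875 of all genes and 3 of the 9. Mgll read 6361, 5730, 7031 and 6106 in C57BL/6 and 9248, 14237, 14713 and 11101 in 129S1/SvImJ. The strains did not overlap, as in 7.78% of all genes, and the log2 difference was 0.94 (SE 0.17, unadjusted p = 0.00112, adjusted p = 0.0595). G0s2 read 1430, 849, 1171 and 1357 in C57BL/6 and 2009, 2491, 1885 and 2793 in 129S1/SvImJ. It did not overlap either (log2 difference 0.94, SE 0.21, adjusted p = 0.114). Adrb3 read 1621, 1916, 1693 and 1446 in C57BL/6 and 794, 709, 945 and 1486 in 129S1/SvImJ, with a difference of -0.82 (SE 0.24, adjusted p = 0.234). The other 6 genes overlapped between the strains, with differences from -0.39 to 0.64.

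Libraries high in lymphocyte or thermogenic markers touch this comparison. Lymphocyte markers summed to 120, 81, 29 and 1977 in C57BL/6 and to 4681, 54, 79 and 1703 in 129S1/SvImJ. Without 129S1/SvImJ replicate 1 Mgll passed the test (1.07, adjusted p = 0.0351). That library also read lowest for Mgll in its group, so leaving it out could only enlarge the difference. Without all 3 libraries that stood apart in these markers, a setting chosen after the values were seen, Mgll differed by 1.19 (adjusted p = 0.00103) and Adrb3 by -1.09 (adjusted p = 0.0159). In that setting 129S1/SvImJ keeps 2 libraries. The 68 pathway genes held no call in iWAT with all libraries, where 1.69% of all genes were called.

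**Figure D3:**
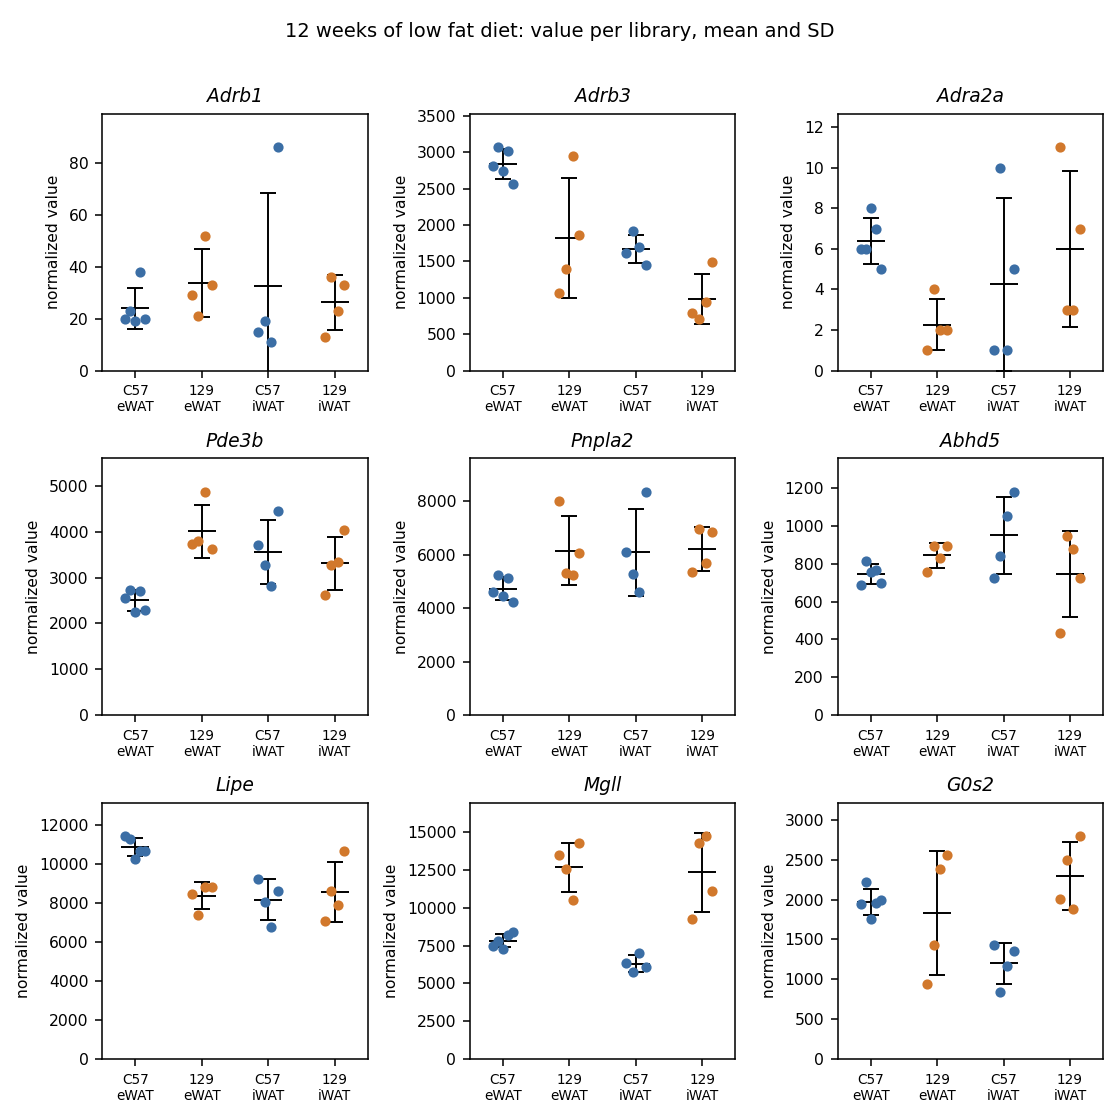
Normalized value (linear axis from 0) of each of the 9 genes in every library after 12 weeks of low fat diet, by strain and depot, with mean and SD (5 C57BL/6 eWAT libraries and 4 in each other group). The SD bars of Adrb1 and Adra2a in C57BL/6 iWAT are cut at 0. Mgll in 129S1/SvImJ runs from 10492 to 14237 in eWAT and from 9248 to 14713 in iWAT, above all C57BL/6 libraries of both depots.

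Between depots, C57BL/6 iWAT had higher Pde3b and lower Lipe than eWAT, which made 2 of 9 genes called where 13.1% of all genes were called, 5.27% higher and 7.81% lower. Pde3b was 2508 ± 226 (SD, n = 5) in eWAT and 3566 ± 697 (SD, n = 4) in iWAT, a log2 difference of 0.49 (SE 0.14, adjusted p = 0.0389). Lipe was 10861 ± 476 (SD, n = 5) and 8170 ± 1053 (SD, n = 4), a difference of -0.42 (SE 0.11, adjusted p = 0.0233). The Pde3b call was lost without any 1 library other than iWAT replicate 3 (adjusted p 0.0525 to 0.107). For Lipe it was lost without eWAT replicate 1 or 2 or iWAT replicate 3 (adjusted p 0.0539, 0.0520 and 0.0612). Without the 3 iWAT libraries high in lymphocyte or thermogenic markers Pde3b differed by 0.38 (adjusted p = 0.0515) and Lipe by -0.45 (adjusted p = 0.00904). Adrb3, Mgll and G0s2 also did not overlap between the depots, all lower in iWAT, and did not pass the test, with differences of -0.77 (SE 0.26), -0.31 (SE 0.13) and -0.74 (SE 0.26) and adjusted p of 0.0663, 0.133 and 0.0800. Groups did not overlap in 15.7% of all genes.

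In 129S1/SvImJ none of the 9 passed the test between depots, where 1.72% of all genes were called and 3036 of all genes and 1 of the 9 had an unadjusted p under 0.05. That gene was Adrb3, 1822 ± 820 (SD, n = 4) in eWAT and 984 ± 349 (SD, n = 4) in iWAT (log2 difference -0.85, SE 0.27, adjusted p = 0.190), and the depots overlapped in all 9 genes, where 6.29% of all genes did not. Mgll was 12677 ± 1614 (SD, n = 4) in eWAT and 12325 ± 2603 (SD, n = 4) in iWAT, with a 95% interval of -0.35 to 0.23 for the difference.

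The depot differences of the strains were compared directly, and none of the 9 passed, where 3.14% of all genes were called and 3677 of all genes and 4 of the 9 had an unadjusted p under 0.05. Pde3b came nearest, with a difference of -0.77 (SE 0.21, adjusted p = 0.0668). It passed without C57BL/6 iWAT replicate 3 (-0.88, adjusted p = 0.0337) or 129S1/SvImJ iWAT replicate 4 (-0.87, adjusted p = 0.0485). These read lowest and highest for Pde3b in their groups, so leaving either out could only enlarge the difference. G0s2 differed by 1.16 (SE 0.38, adjusted p = 0.121), Lipe by 0.44 (SE 0.16, adjusted p = 0.174) and Adra2a by 1.89 (SE 0.73, adjusted p = 0.201). Adra2a lies near the floor here. In C57BL/6 iWAT it read 1, 10, 1 and 5, and the adjacent values occurring in the same library were 80% to 1000% away. Depot comparisons also carry other tissue of the depots: mesothelial markers summed to 2007 to 3232 in eWAT and to 16 to 75 in iWAT over both strains, and progenitor and fibroblast markers to 17634 to 27677 and 31089 to 47499. The part of these markers was not tested. Of the 68 further pathway genes, 6 were higher and 9 lower in iWAT in C57BL/6, and 1 was higher in 129S1/SvImJ. The shares of all genes called in either direction were 13.1% and 1.72%.

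On chow, none of the 9 genes passed the test between strains, where 4.99% of all genes were called, and 3924 of all genes but 0 of the 9 had an unadjusted p under 0.05. All 9 overlapped between the strains, where 7.62% of all genes did not. Replicate 2 of 129S1/SvImJ had the lowest value of all 10 chow libraries in 8 of the 9 genes. Its epididymis markers summed to 241216 and its adipocyte markers to 23054, against 119 to 36399 and 118533 to 174337 in the other 129S1/SvImJ libraries and 54 to 172 and 121825 to 148162 in C57BL/6. Replicate 1, with an epididymis sum of 36399, was lower than 129S1/SvImJ replicates 3, 4 and 5 in all 9 genes.

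Lipe read 10264, 9811, 10997, 10613 and 7821 in C57BL/6 and 5780, 1342, 9270, 9508 and 9095 in 129S1/SvImJ. The log2 difference was -0.78 (SE 0.53, adjusted p = 0.557) with all libraries and -0.082 without 129S1/SvImJ replicates 1 and 2. Mgll read 7142, 6851, 7468, 8167 and 6050 in C57BL/6 and 7614, 2978, 9811, 11184 and 11184 in 129S1/SvImJ. With all libraries it differed by 0.12 (SE 0.36, adjusted p = 0.960), and without both replicates by 0.59 (adjusted p = 0.0177). Adrb3 read 5754, 3920, 6108, 4016 and 2810 in C57BL/6 and 1466, 301, 3559, 4090 and 3932 in 129S1/SvImJ, and its difference went from -1.19 (SE 0.72) to -0.17. G0s2 went from -0.09 (SE 0.53) to 0.63 (adjusted p = 0.0847). Mgll was the only one of the 9 called without the 2 libraries, and its sign with all libraries changed (-0.0078) without 129S1/SvImJ replicate 4 or without replicate 5. The 2 libraries read lowest of their group for Mgll and G0s2. Leaving them out could only raise these differences and adds no support.

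**Figure D4:**
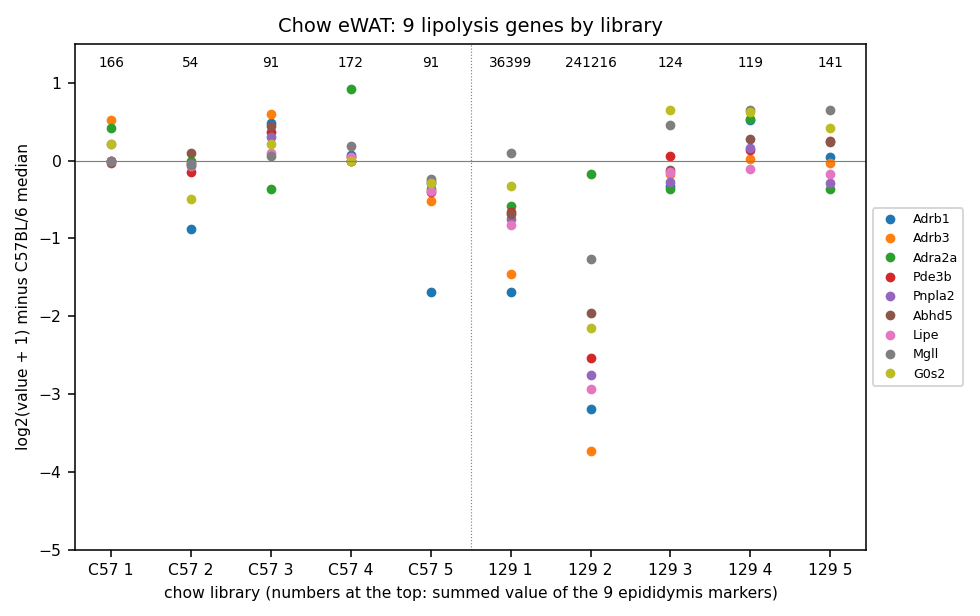
Log2(value + 1) of each of the 9 genes in every chow eWAT library, set against the C57BL/6 median of that gene. Numbers at the top are the summed epididymis markers of the library. 129S1/SvImJ replicate 2, at 241216, holds the lowest values of all but 1 of the genes.

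**Figure D5:**
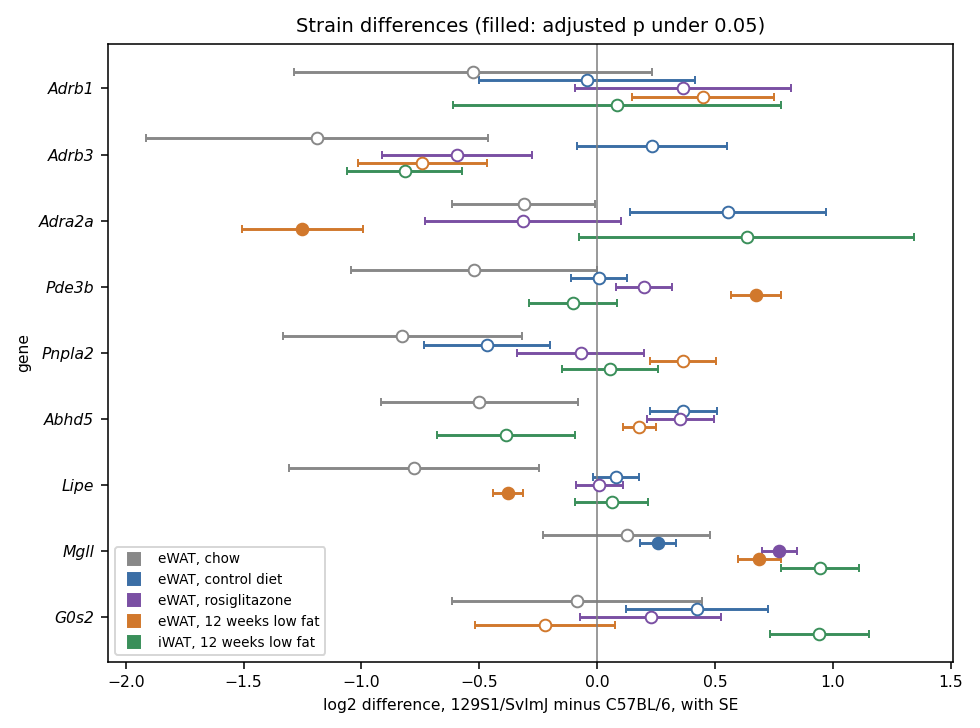
Log2 difference between 129S1/SvImJ and C57BL/6 with its SE for each gene in 5 comparisons. Filled points passed an adjusted p of 0.05 in limma. Mgll lies above 0 in all 5, at 0.12 on chow and 0.94 in iWAT, and Adrb3 lies below 0 in all but the control diet comparison.

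Of the 5 strain comparisons, each with separate libraries, every 129S1/SvImJ library lay above every C57BL/6 library for Mgll in 4: control diet eWAT, rosiglitazone eWAT, 12-week eWAT and iWAT. Groups did not overlap there in 17.6%, 13.2%, 21.1% and 7.78% of all genes, and in iWAT Mgll did not pass the test. The labels do not say whether 12-week eWAT and iWAT came from the same mice, so those comparisons may not be independent. On chow Mgll overlapped between the strains and did not pass the test (0.12, adjusted p = 0.960). Within each strain its order was control diet below rosiglitazone in the drug experiment. In the 12-week experiments C57BL/6 iWAT lay below C57BL/6 eWAT without overlap, both C57BL/6 groups lay below both 129S1/SvImJ groups, and the depots of 129S1/SvImJ did not differ beyond their spread. No level was compared between chow, drug and 12-week tables, which were normalized separately.

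Likeness between genes was described by Pearson's r of log2(value + 1), centred within each set of tables normalized together, over all 43 libraries and over the 41 without 129S1/SvImJ chow replicates 1 and 2. These libraries share strain, diet and depot groups, so r mixes differences between and within groups and carries no p. With all 43, Lipe was most like Plin1, the perilipin it works with at the droplet (r = 0.927), and Pde3b was most like Negr1 (r = 0.947). Without the 2 libraries the genes most like them were Pgp for Lipe (r = 0.761) and Dbt for Pde3b (r = 0.875). Mgll stayed high with Tceb3 in both sets (r = 0.911 and 0.893), and was most like Usp38 in the smaller one (r = 0.906). Adrb3 was most like Por with all libraries (r = 0.895) and Cdo1 without the 2 (r = 0.863). Pnpla2 was most like Gpr81, the lactate receptor Hcar1 that restrains lipolysis, with all libraries (r = 0.886). Abhd5 was most like Dgat1 with all (r = 0.857) and Echdc1 without the 2 (r = 0.770). Among the 9 themselves, Pde3b and Lipe had r = 0.757 with all libraries and 0.022 without the 2. Adrb3 and Mgll had r = 0.037 and -0.465, Pnpla2 and G0s2 0.220 and -0.360, and Pde3b and Abhd5 0.817 and 0.612.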

How the data were processed

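White fat RNA, isolated with Trizol and an RNeasy kit, was made into TruSeq libraries and sequenced on an Illumina Genome Analyzer, per the labels' protocols. The submitters' processing notes name HOMER and the mouse build mm9. Counting options and the normalization are given by no source used here. The deposited values were used as normalized scores: whole numbers with a floor of 1 that the authors had already normalized, not counts. Library totals of these scores were 7518968 to 7526303 on chow, 5537632 to 5542536 in the drug experiment and 6757422 to 6769165 after 12 weeks. The highest value was the same in every library of a set, at 145538, 231290 and 267214. Libraries of a set had thus been brought to a common scale, so a value is relative to the other genes of its library. Replicate libraries correlated at 0.848 to 0.994, and depth is unknown. The authors' deposited table also holds log2 fold changes and p-values, of which only fold changes of Mgll are quoted.

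One transcript row per symbol, that with the highest total, was kept of 28644 rows. Differences of log2(value + 1) were fitted with limma 3.58.1 in R 4.3.3 (trend and robust settings) on all 22869 symbols, two-sided, with Benjamini-Hochberg adjustment and a threshold of 0.05. Each strain comparison on chow or after 12 weeks was fitted on its own libraries. The drug experiment (16 libraries) and the depot comparisons (17 libraries) had one fit each. The 8 control columns were identical in both drug tables. The fit was tested on simulated data. Libraries with the same replicate number did not deviate together in all pairs of any of 9 group pairs, so no block was used.

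The 9 genes and the gene lists were chosen with earlier results of these data known. All 9 are described. Of the lists' genes, those named are among the 2 called genes with the smallest adjusted p per list and comparison, and the genes most like a member are those of highest Pearson's r among 13633 with a mean of at least 10. The gene most like Pnpla2 without the chow libraries that stand apart is not reported here. Alternatives were other pseudocounts and filters, summed transcript rows, median centring, array weights, plain limma, narrower fits, a replicate block and each library left out.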

Additional observations from a re-analysis of the deposited data

Results flagged for a closer look

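Of 90 groups of 4 or 5 libraries examined over the 9 genes, 8 held a library far from the others by Dixon's criterion, which chance alone meets in about 1 in 20 groups. For Adrb1 these were C57BL/6 control replicate 4 at 82 (others 9 to 15), C57BL/6 rosiglitazone replicate 2 at 13 (others 20 to 21), C57BL/6 12-week eWAT replicate 4 at 38 (others 19 to 23) and C57BL/6 iWAT replicate 4 at 86 (others 11 to 19). The last is the library whose thermogenic markers summed to 6216 and lymphocyte markers to 1977, and the part of these markers was not tested. Adrb3 stood high in C57BL/6 rosiglitazone replicate 1 at 2479 (others 1867 to 1952). Adra2a stood high in 129S1/SvImJ chow replicate 4 at 12 (others 5 to 7). Pde3b stood high in 129S1/SvImJ 12-week eWAT replicate 3 at 4878 (others 3625 to 3812). Lipe stood low in C57BL/6 rosiglitazone replicate 2 at 7713 (others 8951 to 9097).

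The Mgll response to rosiglitazone differed between the strains, by 0.51 on the log2 scale in the limma interaction test (adjusted p = 0.0494). The direction was kept whichever of the 16 libraries was left out, and the call in 2 of those fits.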

How the results depend on the processing

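Over the 15 called values and 265 settings, 178 kept the call, 87 lost it and 0 changed direction, and 6 of the 15 kept it whichever library was left out. The cause of the changes below was not tested. On chow, where the main count of called genes was 0, array weights gave 1 and leaving out 129S1/SvImJ replicates 1 and 2 together gave 1. Uncalled chow differences changed sign with array weights (Adrb1 0.0925, Pde3b 0.0208, G0s2 0.50) and without both replicates (Adrb1 0.49, Pde3b 0.18, Abhd5 0.0783, G0s2 0.63). Leaving out single libraries gave -0.89 to 0.0408 for Adrb1, -0.0078 to 0.47 for Mgll and -0.29 to 0.41 for G0s2. On control diet the strain count of 1 became 2 with array weights and 0 to 2 without single libraries. The C57BL/6 rosiglitazone count of 2 became 1 with a pseudocount of 8, a mean value of at least 10, summed transcript rows or limma without trend and robust settings, 0 with only the groups compared, and 0 to 2 without single libraries. In 129S1/SvImJ the count of 4 became 1 without trend and robust settings, 2 with only the groups compared, and 1 to 3 without single libraries. The interaction count of 1 became 0 with a pseudocount of 8, a mean of at least 10, summed rows or no trend and robust settings, and 0 to 1 without single libraries. On rosiglitazone the strain count of 1 became 2 with only the groups compared. In 12-week eWAT a mean of at least 10 added Adrb3 and Pnpla2 to the called genes and dropped Adra2a. In iWAT the strain count of 0 became 2 with a mean of at least 10, 1 with median centring or array weights, 2 without the 3 iWAT libraries high in lymphocyte or thermogenic markers, and 0 to 1 without single libraries. The C57BL/6 depot count of 2 became 4 with a mean of at least 10 or only the groups compared, 1 with array weights or without the 3 iWAT libraries, and 0 to 1 without single libraries. The 129S1/SvImJ depot count of 0 became 1 with array weights. The strain by depot count of 0 became 1 with a mean of at least 10 and 0 to 1 without single libraries.

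With the replicate block the counts were 0 for the C57BL/6 rosiglitazone response, 0 for the interaction, 3 for the 129S1/SvImJ rosiglitazone response (Pde3b lost its call, adjusted p = 0.0705), 2 for 12-week eWAT and 0 for the C57BL/6 depot difference. In 12-week eWAT Adra2a, Pde3b and Lipe lost their calls (adjusted p = 0.0982, 0.119 and 0.105), and Abhd5 was newly called (adjusted p = 0.0468). The pairing of numbers had no ground in the labels, and in 0 of 9 group pairs did every pair of libraries correlate above 0.1. Leaving out the 3 iWAT libraries was chosen after seeing the data, as was the set of 41 libraries used for likeness. A mean of at least 10 drops Adra2a, which then has no value. Depth is unknown, and Adra2a lies near the floor.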
